A study of Mus musculus with 23 samples.

Results

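The genes described here drive the cell division cycle and copy the genome. They are 58 of the 52143 genes in the deposited gene table, chosen by symbol from general knowledge of the cycle and taken from the primary chromosomes. They fall into 23 genes of DNA replication and S phase, 25 genes of G2 and mitosis, 6 D cyclins and cyclin-dependent kinases and 4 inhibitors of these kinases. All 58 passed the filter on low counts in every fit reported.

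Retinal organoids are clumps of cells that form layered neural retina in culture. These were grown from 1 clone of mouse induced pluripotent stem cells, reprogrammed from fibroblasts of Nrl-GFP mice, which carry green fluorescent protein as a marker of rod photoreceptors. Neural retina was dissected from pooled organoids, and stranded libraries of polyadenylated RNA were sequenced from 2 or 3 biological replicates per group. What separates replicates is not further described in the labels, so p values measure only the spread between these libraries.

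The first groups were taken at day 32 after FGF1, a fibroblast growth factor, had been added at 200 ng/ml from day 26. They had DHA (docosahexaenoic acid, 2 libraries), LA (linoleic acid, 3 libraries) or BSA (bovine serum albumin, 3 libraries). The day 32 groups without FGF1 had DHA, LA or BSA with 3 libraries each, and the day 26 groups had DHA, LA or BSA with 2 libraries each. Both fatty acids were bound to BSA and given at 26 uM from day 10. From day 26 on, the medium of every group also contained non-essential amino acids, B27 without vitamin A and serum, so a comparison of day 32 with day 26 holds age and this change together.

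In the retina, progenitors divide and then leave the cycle as neurons and Muller glia are born. D cyclins with Cdk4 or Cdk6 switch off the retinoblastoma protein, which frees E2F factors to turn on replication genes. Cyclin B with Cdk1 later drives mitosis, whose genes are turned on late through CHR and CCAAT elements in their promoters. CDK inhibitors hold the kinases back.

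The promoters below show these elements in 5 members, taken as 3 mitotic genes that fell and 2 replication genes that fell. All 5 hold the letters marked, so they are examples only. Mcm3 passed narrowly and lost its call in most fits that left out 1 library. Uhrf1, which fell more than Mcm7 or Mcm3, held no E2F letters in its promoter. They are RefSeq sequences of GRCm38.p6, 300 bases each, covering 250 bases before and 50 after a RefSeq start site, on the strand of the gene. This site can differ from the gene start in the deposited table. The deposited position of Mcm7 starts at chr5:138172422 on the minus strand, so its whole window lies inside that gene. Capitals mark CHR letters (TTTGAA or TTTAAA) and CCAAT letters in Top2a, Ccnb1 and Cdk1. In Mcm7 and Mcm3, capitals mark E2F letters (TTTGGCGC, TTTCGCGC or TTTCCCGC). Both strands were searched, and the capitals do not overlap within any of the 5 windows. An E2F match in Cdk1 and the CCAAT matches in Mcm7 and Mcm3 are left in lower case, and 1 CCAAT match of Mcm7 starts on the last base of its second E2F match.
Top2a, chr11:99024140-99024439, minus strand: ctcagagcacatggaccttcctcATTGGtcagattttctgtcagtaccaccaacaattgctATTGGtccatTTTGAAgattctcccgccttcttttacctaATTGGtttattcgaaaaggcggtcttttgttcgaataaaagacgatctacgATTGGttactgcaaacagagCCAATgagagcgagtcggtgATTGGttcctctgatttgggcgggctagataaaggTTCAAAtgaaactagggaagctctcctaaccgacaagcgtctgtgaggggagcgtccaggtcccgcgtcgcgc
Ccnb1, chr13:100786437-100786736, minus strand: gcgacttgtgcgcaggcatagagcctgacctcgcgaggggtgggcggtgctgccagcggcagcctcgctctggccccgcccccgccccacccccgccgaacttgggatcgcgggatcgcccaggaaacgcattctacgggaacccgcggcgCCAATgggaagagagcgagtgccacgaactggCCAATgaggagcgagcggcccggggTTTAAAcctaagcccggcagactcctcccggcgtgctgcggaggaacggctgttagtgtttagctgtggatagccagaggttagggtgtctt
Cdk1, chr10:69352863-69353162, minus strand: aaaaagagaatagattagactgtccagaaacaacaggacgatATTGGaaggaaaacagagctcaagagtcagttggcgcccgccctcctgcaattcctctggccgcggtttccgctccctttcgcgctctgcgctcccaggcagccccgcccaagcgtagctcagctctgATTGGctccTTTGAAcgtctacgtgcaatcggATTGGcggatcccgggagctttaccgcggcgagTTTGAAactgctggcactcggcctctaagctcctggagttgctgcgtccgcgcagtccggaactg
Mcm7, chr5:138171834-138172133, minus strand: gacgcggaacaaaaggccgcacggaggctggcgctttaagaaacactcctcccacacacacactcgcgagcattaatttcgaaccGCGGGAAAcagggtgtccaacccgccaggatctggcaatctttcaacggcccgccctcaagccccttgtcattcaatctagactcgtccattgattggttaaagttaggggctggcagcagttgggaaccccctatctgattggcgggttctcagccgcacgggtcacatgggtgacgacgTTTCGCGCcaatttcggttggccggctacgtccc
Mcm3, chr1:20820263-20820562, minus strand: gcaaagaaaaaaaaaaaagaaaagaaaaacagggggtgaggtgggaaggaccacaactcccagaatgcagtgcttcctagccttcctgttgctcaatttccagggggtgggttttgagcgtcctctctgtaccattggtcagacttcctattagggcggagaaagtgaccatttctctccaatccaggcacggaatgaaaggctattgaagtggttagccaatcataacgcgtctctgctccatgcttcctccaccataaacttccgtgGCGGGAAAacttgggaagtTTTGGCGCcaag

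RefSeq promoters were matched for 47 of the 58 members, 20 of them mitotic and 20 of them replication genes. CHR letters stood in 17 of 20 mitotic promoters (85%) and in 6 of 20 replication promoters (30%), against 27.8% of 27025 promoters in all. CCAAT letters stood in 17 of 20 mitotic and 12 of 20 replication promoters, against 37.9% of all promoters. E2F letters stood in 1 of 20 mitotic promoters (Cdk1) and in 7 of 20 replication promoters (Mcm3, Mcm5, Mcm6, Mcm7, Cdc6, Cdt1 and Pola1), against 1.91% of all. Letter matches describe the sequence and were not tested as binding sites.

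The 23 libraries fell into 2 sets by depth. The 12 deeper ones (every day 26 library, and the libraries numbered 1 and 2 of each FGF1 group) held 16029580 to 20510550 estimated counts, and 3.02% to 4.24% of these were mitochondrial. The 11 shallower ones (all day 32 libraries without FGF1, and the libraries numbered 3 of BSA and LA with FGF1) held 10405663 to 11888224 counts, with 5.55% to 12.53% mitochondrial. GC-rich genes were also lower in the shallower set: the slope of log2 CPM (estimated counts scaled to a common library size) per 10 points of GC was -1.876 to -0.57 there, against 0.241 to 0.508 in the deeper set. The authors left 5 of the shallower libraries out of their normalized table, namely replicate 1 of each medium without FGF1 and both shallower FGF1 libraries. Of the 18 retinal progenitor markers, none was under 0.1 CPM in all libraries of any set.

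The comparison that stays within the deeper libraries set day 32 with FGF1 against day 26, 6 libraries each, and asked how the cycle genes changed over these days. FGF1, age and the change of medium cannot be told apart in it. Most members fell: 41 of 58 were lower at day 32 with FGF1 and 1 was higher, in edgeR's quasi-likelihood test at a Benjamini-Hochberg adjusted p under 0.05. Over all 20111 genes tested, 14.1% were lower and 14.6% higher. The fall held 23 of the 25 mitotic members, 14 of the 23 replication members, 3 of the 6 D cyclins and kinases and 1 of the 4 inhibitors. The median log2 difference was -1.22 for the mitotic members and -0.53 for the replication members, against 0.00 for all genes. Differences below are log2 differences, day 32 with FGF1 minus day 26, with their standard error (SE) and edgeR adjusted p, and levels are CPM.

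**Figure D1:**
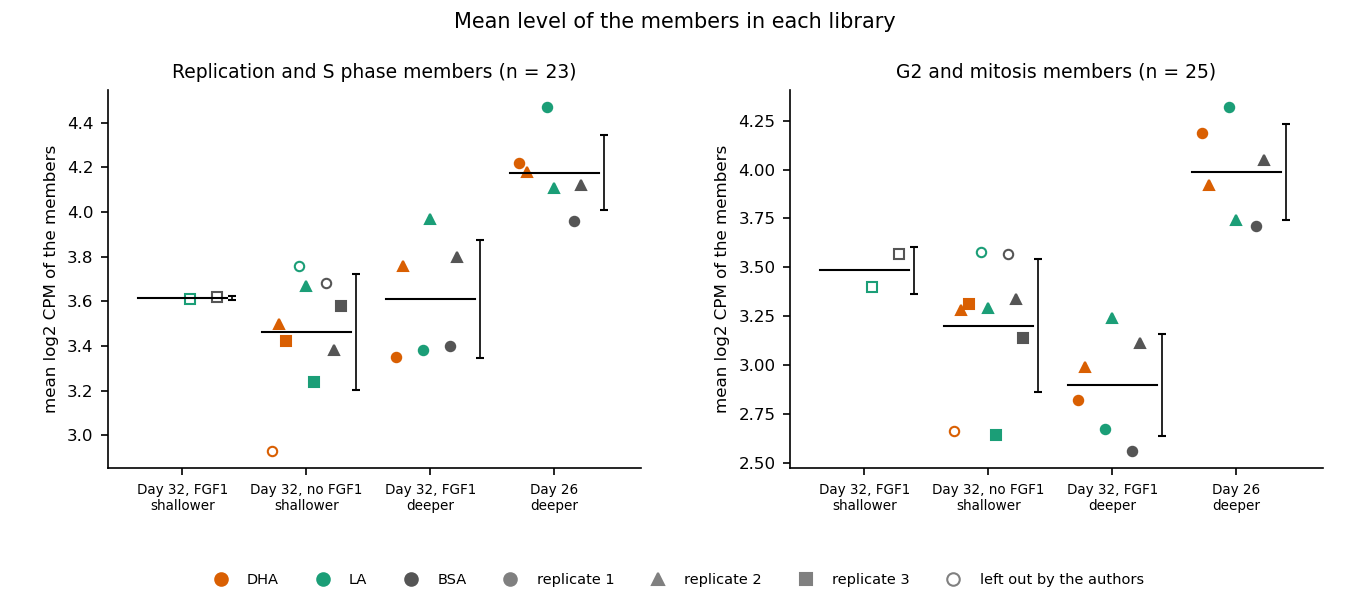
Mean log2 CPM of the 23 replication members (left panel) and the 25 mitotic members (right panel) in each library, by day, FGF1 and depth. Colours mark the medium, symbols the replicate number and open symbols the libraries left out by the authors, with the mean as a line and 1 SD as a bar. The mitotic mean of the 6 deeper day 32 libraries with FGF1 lies at 2.56 to 3.24, below all 6 day 26 libraries at 3.71 to 4.32.

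Averaged within each library, the mitotic members stood at 2.90 ± 0.26 log2 CPM at day 32 with FGF1 and at 3.99 ± 0.244 at day 26 (SD, n = 6 each), and the groups did not overlap. The replication members stood at 3.35 to 3.97 at day 32 with FGF1 and at 3.96 to 4.47 at day 26, so that these groups met at their edge. The mitotic mean minus the replication mean was -0.84 to -0.53 at day 32 with FGF1 and -0.36 to -0.03 at day 26. These are descriptions of the chosen genes. In bulk tissue, fewer dividing cells and less RNA per dividing cell cannot be told apart.

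Among the replication members, all 23 differences were below 0. E2f1 encodes the factor that turns on replication genes at the end of G1 (ENSMUSG00000027490, GRCm38 chr2:154559407-154569892, minus strand). Its level was 12.4 CPM at the lowest, 13.3 at the median and 15.8 at the highest at day 32 with FGF1, against 24.4, 30.6 and 36.6 CPM at day 26. The groups were well apart, and E2f1 fell by 1.13 on the log2 scale (SE 0.118, edgeR adjusted p = 4.33e-05), to 0.456 times its day 26 level.

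The MCM helicase unwinds DNA at the replication fork, with Mcm2 to Mcm7 as its subunits. Mcm7 had 30.4, 31.7 and 32.6 CPM (lowest, median and highest) at day 32 with FGF1, against 52.9, 59.9 and 60.8 CPM at day 26. Each group was tight, and the difference was -0.86 (SE 0.0797, edgeR adjusted p = 2.09e-05). Mcm2 had 10.4, 12.3 and 16.6 CPM at day 32 with FGF1, against 16.6, 20.3 and 27.5 CPM at day 26. The Mcm2 groups touched without crossing, and it fell by 0.66 (SE 0.142, edgeR adjusted p = 0.0048). Mcm3 (-0.65) and Mcm6 (-0.57) passed the test more narrowly. Mcm5 had 5.95, 9.07 and 16.0 CPM at day 32 with FGF1, against 10.2, 13.4 and 18.7 CPM at day 26. Its groups overlapped and the difference of -0.55 did not pass (SE 0.242, edgeR adjusted p = 0.114). Mcm4 did not pass either, at -0.11.

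Uhrf1, which carries DNA methylation over to the new strand, had 6.02, 7.66 and 15.9 CPM at day 32 with FGF1, against 14.3, 17.9 and 25.1 CPM at day 26. It fell by 1.03 (SE 0.223, edgeR adjusted p = 0.00504), although 1 day 32 library stood above the lowest day 26 library. Lig1, the ligase that joins Okazaki fragments, fell by 0.84. Cdt1, which loads the helicase on origins, fell by 0.76, and the clamp loader subunit Rfc4 by 0.73. Ribonucleotide reductase subunit Rrm1 fell by 0.53 and thymidylate synthase Tyms by 0.63. The subunits of the primase complex, Prim1 (-0.52) and Pola1 (-0.46), fell as well.

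Other replication members showed differences that did not pass the test. Pcna, the sliding clamp of the polymerases, had 52.8, 58.8 and 68.7 CPM at day 32 with FGF1, against 56.1, 68.9 and 97.1 CPM at day 26. The difference was -0.28 (SE 0.141, edgeR adjusted p = 0.167), and the groups overlapped. Rrm2, the S-phase subunit of ribonucleotide reductase, had 7.27, 11.1 and 23.1 CPM at day 32 with FGF1, against 11.8, 15.1 and 23.2 CPM at day 26. Its groups spread over much the same range, with a difference of -0.30. Cyclin E2 (Ccne2), a partner of Cdk2 at the start of S phase, had 7.22, 8.41 and 11.2 CPM at day 32 with FGF1, against 9.58, 11.9 and 14.6 CPM at day 26. It passed at -0.45 (SE 0.121, edgeR adjusted p = 0.0169), whereas Ccne1 did not at -0.15. Fen1 (-0.35), Cdc6 (-0.29), Cdc45 (-0.20) and Gins2 (-0.01) did not pass.

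The differences of the mitotic members ran from -1.57 (Ccnb1) to -0.23 (Gtse1), and whether they exceeded those of the replication members was not tested. Cyclin B1 (Ccnb1), the activator of Cdk1, had 5.50, 8.22 and 10.4 CPM at day 32 with FGF1, against 16.9, 23.8 and 31.9 CPM at day 26. Every day 32 library was below every day 26 library, and the difference was -1.57 (SE 0.211, edgeR adjusted p = 0.000246). Cdk1 itself had 6.33, 9.10 and 14.9 CPM at day 32 with FGF1, against 13.9, 25.7 and 32.1 CPM at day 26. It fell by 1.34 (SE 0.223, edgeR adjusted p = 0.00102), with an overlap of 1 library on each side. Cdc25c, the phosphatase that activates Cdk1, had 1.15, 1.55 and 2.2 CPM at day 32 with FGF1, against 3.39, 4.67 and 5.66 CPM at day 26. It fell by 1.50, and its groups did not meet.

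Top2a, the topoisomerase that untangles sister chromosomes (ENSMUSG00000020914, GRCm38 chr11:98992943-99024189, minus strand), had 26.7, 35.2 and 53 CPM at day 32 with FGF1, against 78.3, 106 and 134 CPM at day 26. The groups were far apart, and it fell by 1.49 (SE 0.187, edgeR adjusted p = 0.000158). Mki67, the proliferation marker that coats mitotic chromosomes, had 24.9, 36.5 and 53 CPM at day 32 with FGF1, against 66.4, 108 and 125 CPM at day 26. It fell by 1.40 (SE 0.213, edgeR adjusted p = 0.000551). Aurora B (Aurkb), the kinase that corrects chromosome attachment, had 2.46, 3.69 and 5.32 CPM at day 32 with FGF1, against 7.28, 7.96 and 12.4 CPM at day 26. It fell by 1.26 (SE 0.226, edgeR adjusted p = 0.00164), and no library crossed over.

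The remaining mitotic members followed by role. Of the anaphase machinery, Ube2c fell by 1.49 and Cdc20 by 1.22. Of the spindle genes, Nusap1 fell by 1.46, Kif11 by 1.37 and Tpx2 by 1.19. Of the spindle checkpoint, Bub1 fell by 1.22, Ttk by 0.90, Bub1b by 0.58 and Mad2l1 by 0.50. Birc5 (-1.29), Cenpf (-1.26), Aurka (-0.97) and Hmmr (-0.98) also passed. Cenpe, a kinetochore motor, did not pass at -0.67 (edgeR adjusted p = 0.0824), and Gtse1 did not at -0.23 (edgeR adjusted p = 0.312). The value of Kif11 is a share of its reads, because a second copy of the gene on a patch sequence carried the same count in all 23 libraries (ratio 1.0). Ccnb2 (-1.10) is uncertain, since a pseudogene named Ccnb2-ps held 8.82 to 20.1 CPM in the libraries kept by the authors.

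**Figure D2:**
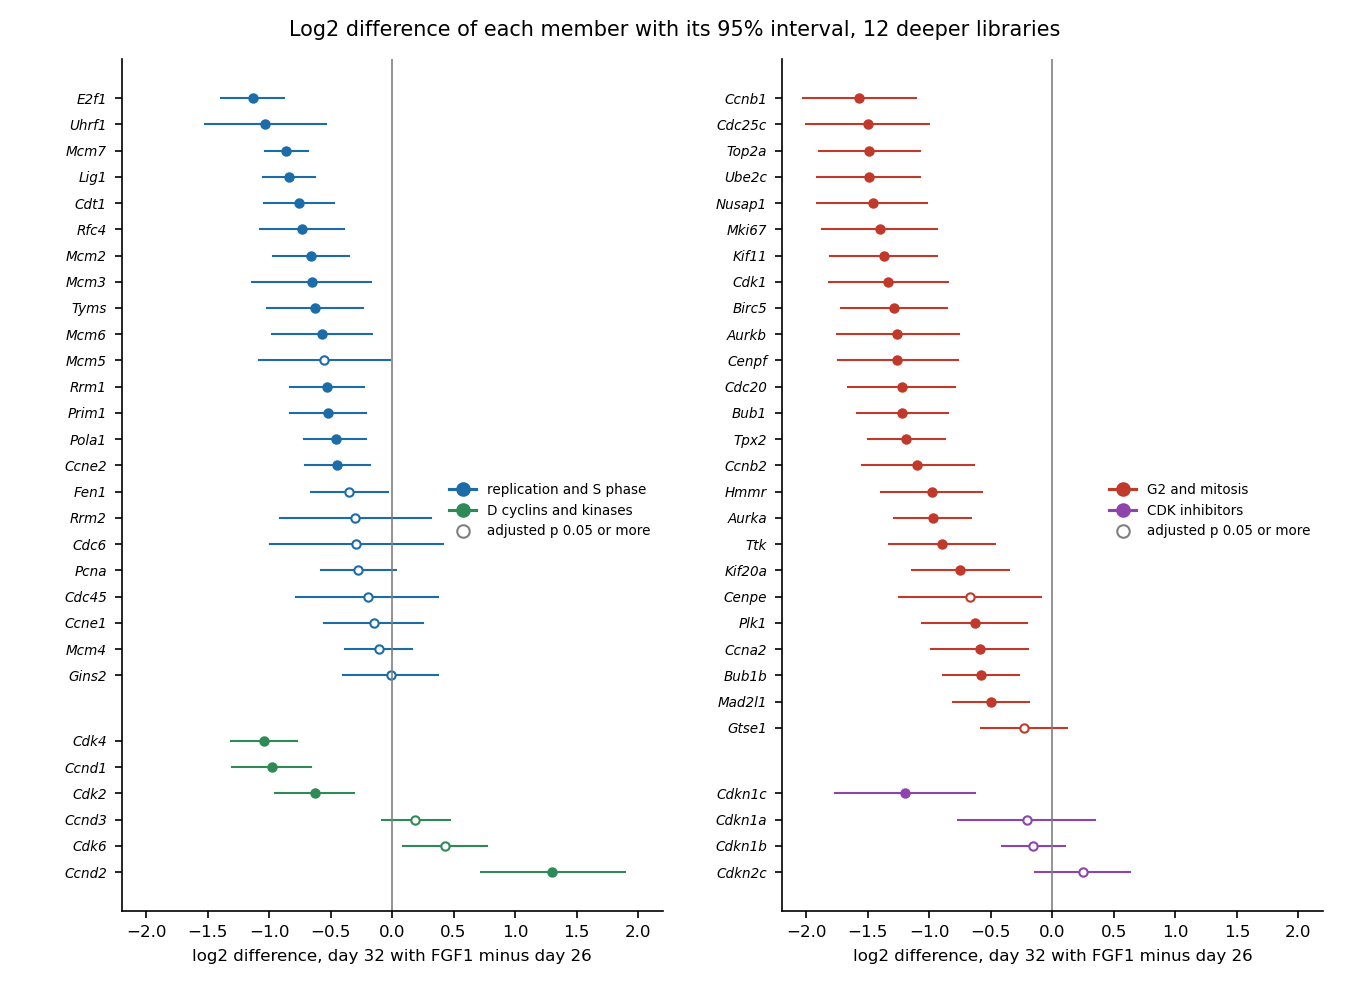
Log2 difference of each member, day 32 with FGF1 minus day 26 in the 12 deeper libraries, with its approximate 95% interval. Filled circles passed an edgeR adjusted p under 0.05. The 25 mitotic members all lie below 0, from -1.57 to -0.23, and Ccnd2 at 1.3 is the filled circle above 0.

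The D cyclins and kinases went different ways. Cyclin D1 (Ccnd1), the main D cyclin of retinal progenitors, had 68.0, 79.1 and 119.5 CPM at day 32 with FGF1, against 146, 171 and 223 CPM at day 26. It fell by 0.98 (SE 0.147, edgeR adjusted p = 0.000522), with no overlap. Cdk4, its kinase (ENSMUSG00000006728, GRCm38 chr10:127063534-127067920, plus strand), had 132, 152 and 174 CPM at day 32 with FGF1, against 251, 300.1 and 390.3 CPM at day 26. It fell by 1.04 (SE 0.123, edgeR adjusted p = 0.000101), again without overlap. Cdk2, the partner of cyclins E and A, fell by 0.63.

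Ccnd2 was the member that rose. Cyclin D2 (ENSMUSG00000000184, GRCm38 chr6:127125162-127152193, minus strand) had 104, 125 and 276 CPM at day 32 with FGF1, against 29.1, 61.7 and 87.9 CPM at day 26. Every day 32 library lay above every day 26 library, and the level was 2.47 times that of day 26 (difference 1.3, SE 0.269, edgeR adjusted p = 0.00381). The highest value belonged to replicate 2 of LA with FGF1, and the difference was 1.08 to 1.59 when each library in turn was left out. Ccnd3 had 35.2, 46.7 and 53 CPM at day 32 with FGF1, against 33.8, 40.5 and 46.9 CPM at day 26, and its difference of 0.19 did not pass. Cdk6 had 20.3, 28.5 and 44.4 CPM at day 32 with FGF1, against 19.2, 22 and 24 CPM at day 26. Its difference of 0.43 missed the threshold (edgeR adjusted p = 0.0594).

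Of the inhibitors, Cdkn1c (p57) had 12.5, 27.0 and 39.6 CPM at day 32 with FGF1, against 53.1, 63.3 and 80.2 CPM at day 26. It fell by 1.2 (SE 0.26, edgeR adjusted p = 0.00505) with no overlap, and was the called member of its class. Cdkn1a (p21), a target of p53, had 44.9, 60.5 and 115 CPM at day 32 with FGF1, against 44.0, 89.9 and 113 CPM at day 26. Cdkn1b (p27) had 79.9, 96.9 and 141 CPM at day 32 with FGF1, against 104, 113 and 123 CPM at day 26. Cdkn2c (p18) had 4.40, 5.31 and 8.08 CPM at day 32 with FGF1, against 3.56, 5.17 and 5.50 CPM at day 26. These last 3 overlapped between groups and did not pass, with differences of -0.21, -0.16 and 0.25.

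Across all members, every day 32 library was below every day 26 library for 26 of 58 genes, against 8.52% of all genes. These were 17 of the 25 mitotic genes, 6 of the 23 replication genes (E2f1, Mcm2, Mcm7, Cdt1, Prim1 and Lig1), Ccnd1, Cdk4 and Cdkn1c. Leaving out each library in turn gave 34 to 43 members lower, and Mcm3, Mcm6, Tyms, Ccne2, Ccna2, Mad2l1 and Plk1 each lost their call without at least 1 of the libraries. Per kilobase of transcript, Cdk4 was the most abundant member, with 96.3 CPM per kb at day 32 with FGF1 and 201 CPM per kb at day 26. Cdc6 was the least abundant, at 0.748 CPM per kb at day 32 with FGF1 and 0.937 CPM per kb at day 26.

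**Figure D3:**
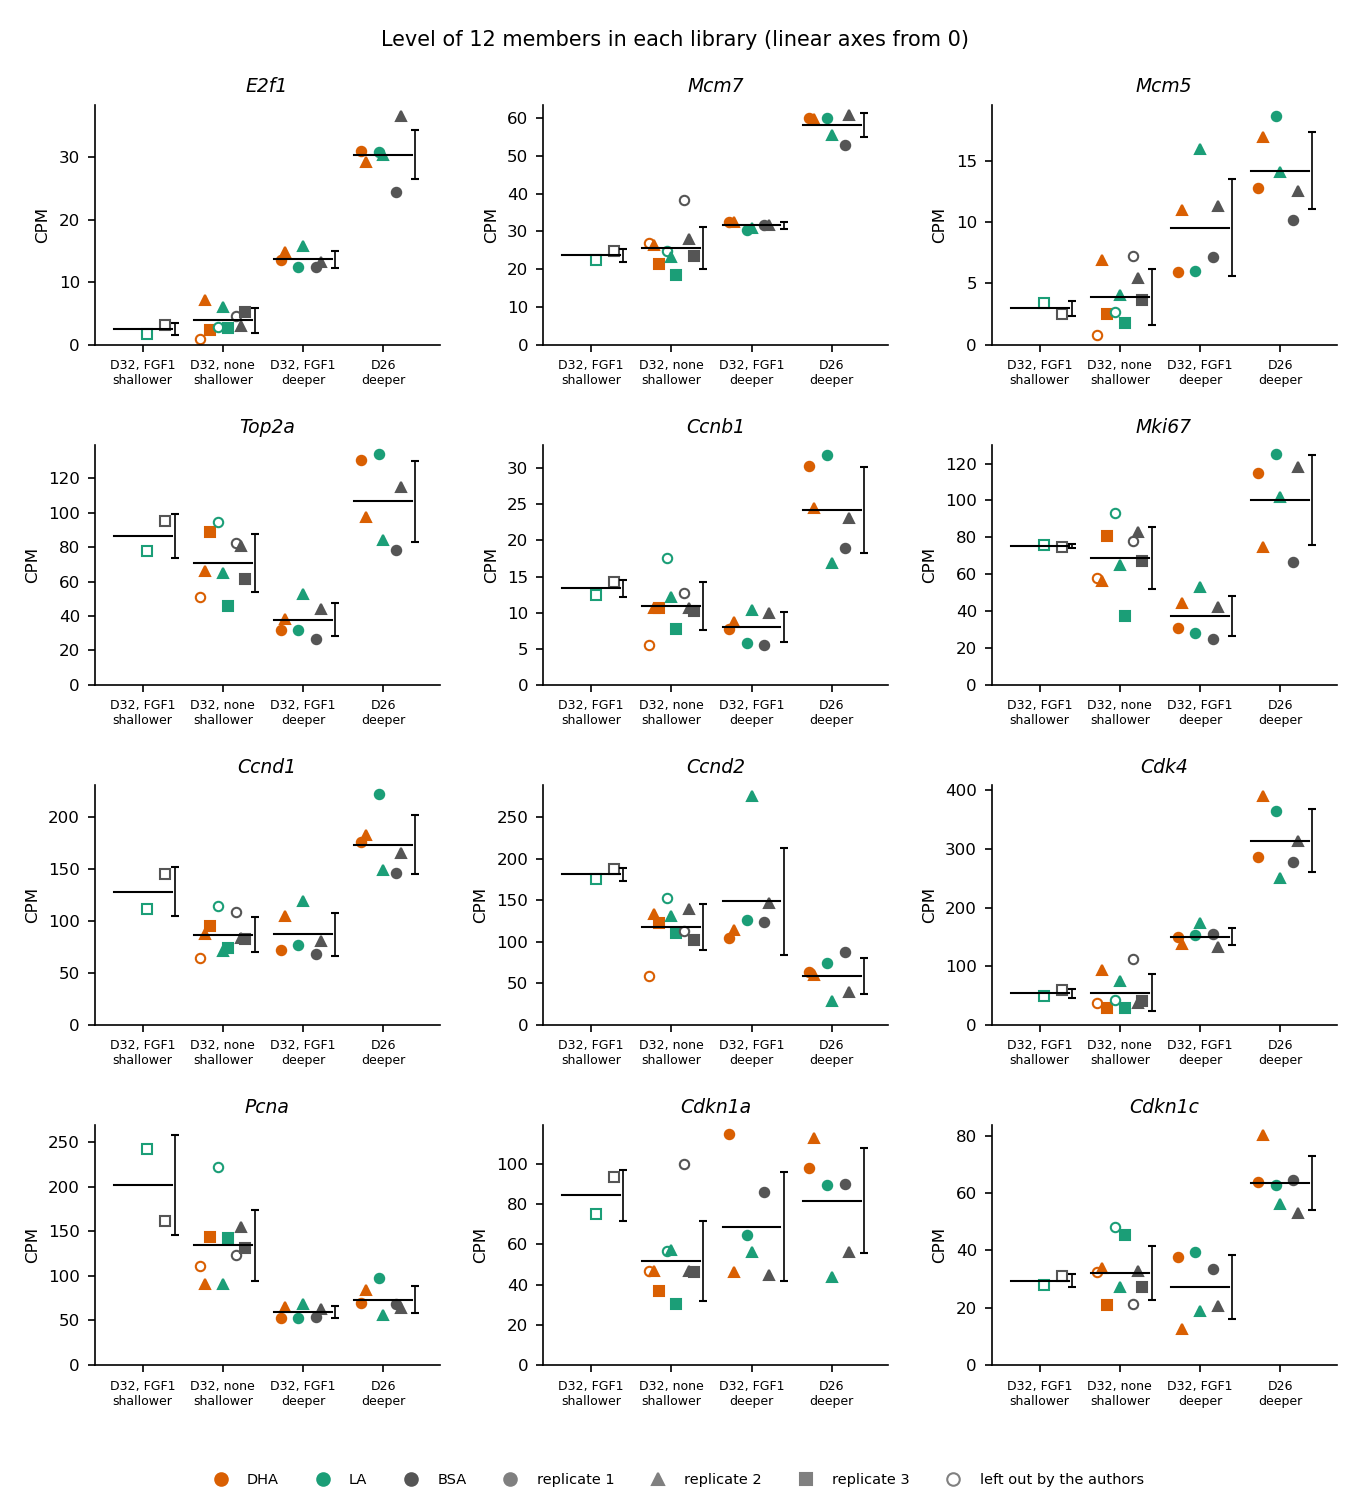
CPM of 12 members in each library on linear axes from 0, by day, FGF1 and depth, with colours for the medium, symbols for the replicate number, open symbols for libraries left out by the authors, a line at the mean and a bar of 1 SD. E2f1 runs from 12.4 to 15.8 CPM in the deeper day 32 libraries with FGF1 and from 24.4 to 36.6 CPM at day 26, whereas Cdkn1a overlaps between these groups.

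Genes of the same processes outside the 58 gave further values in this comparison. Of 50 other G2 and mitosis genes, 41 were lower and 1 was higher, with a median of -0.92. Cenpa, the centromere histone, fell by 1.29 and the phosphatase Cdc25b by 1.16, while Spc25, a kinetochore gene, rose by 1.27. Of 40 other replication genes, 15 were lower and 0 higher, with a median of -0.35 and 26 at an unadjusted p under 0.05. Dbf4, the activator of the kinase Cdc7, fell by 1.22 and Tipin, a fork protection factor, by 0.73. Of 27 regulators, 9 were lower and 2 higher. E2f2 fell by 1.95, Mycl by 1.76 and Tfdp2, a partner of E2F, by 0.97, while E2f6, a repressor of the family, rose by 1.02. Of 20 exit and p53 target genes, 6 were higher and 5 lower. Gadd45a, a stress response gene, rose by 1.12 and the inhibitor Cdkn2b by 1.48, and Btg1 fell by 0.85.

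The 5 genes whose level over the 12 deeper libraries was most like the mean of the mitotic members were Ckap2l (Pearson r 0.99), Gm4739 (0.977), Aspm (0.973), Racgap1 (0.972) and Nuf2 (0.971). These libraries share the difference of days, which raises every such value.

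Markers of cell types moved in the same comparison. Of 18 progenitor markers, 15 were lower and 2 higher, and their summed level was 1073 to 1204 CPM at day 32 with FGF1 and 1573 to 2041 CPM at day 26. Hes5, a Notch target, fell by 3.69. Of 12 Muller glia markers, 9 were higher, and their sum was 2239 to 3524 CPM at day 32 with FGF1 and 1163 to 1827 CPM at day 26. Of 15 rod and shared photoreceptor markers, 10 were higher and 2 lower. Their sum was 9120.1 to 15238 CPM at day 32 with FGF1 and 5605 to 7669.8 CPM at day 26. All 3 astrocyte markers were higher, with a sum of 38.4 to 481 CPM at day 32 with FGF1 and 5.92 to 22.8 CPM at day 26. Of 12 fibroblast markers 2 were higher, near the 14.6% of all genes, with sums of 42.2 to 494 CPM at day 32 with FGF1 and 35.8 to 126 CPM at day 26.

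Markers of other cell types were lower or mixed. Of 7 cone markers tested, 3 were lower and 1 higher, and the cone sum was 171 to 256 CPM at day 32 with FGF1 and 494 to 929 CPM at day 26. Of 8 pigment epithelium markers tested 3 were lower, with sums of 18.6 to 294 CPM at day 32 with FGF1 and 26.2 to 376 CPM at day 26. Microglia and macrophage markers were low, with sums of 1.22 to 1.67 CPM at day 32 with FGF1 and 2.79 to 3.88 CPM at day 26, and 1 of the 2 tested was lower. Pluripotent cell markers summed to 8.79 to 27.6 CPM at day 32 with FGF1 and 3.99 to 5.3 CPM at day 26. The mean log2 CPM of these markers overlapped, at -1.01 to -0.74 at day 32 with FGF1 and -1.06 to -0.79 at day 26. Of the 3 tested, Esrrb was higher by 2.66 and Pou5f1 fell by 2.24. The sums of bipolar, amacrine, horizontal and ganglion cell markers overlapped between the groups, with 6 of 18 higher and 4 lower, as did those of endothelium and blood markers, with 1 of 3 tested higher. The part of these cell types in the members' differences was not tested.

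The libraries with the same replicate number also moved together within day 32 with FGF1. The library numbered 2 was above the one numbered 1 in all 3 media for 37 of 58 members, against 22.7% of all genes. These were 18 of the 23 replication members, 16 of the 25 mitotic members, and Ccnd1, Ccnd2 and Cdk2. Aurka, Cdk6, Cdkn1a, Cdkn1b and Cdkn1c were below in all 3 media, which is 8.62% of the members against 22.1% of all genes. At day 26, 0 members were above, against 13.8% of all genes, and 3 were below (5.17%), against 9.42% of all genes. The labels do not say what the numbers mark. In fits chosen after the data were seen, only the libraries numbered 1 gave 47 members lower and 2 higher, with a mitotic median of -1.38 and a replication median of -0.85. Only the libraries numbered 2 gave 17 members lower and 1 higher, with a mitotic median of -0.90 and a replication median of -0.29. The median of all genes was 0.02 with the libraries numbered 1 and 0.01 with those numbered 2. The number of all genes called in each fit is given in the closing section, without a split by direction.

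Each medium gave its own step, with 2 libraries at day 32 with FGF1 against 2 at day 26 in the same fit, also chosen after seeing the data. In DHA 21 members were lower (4.28% of all genes), in LA 12 were lower (1.81% of all genes), and in BSA 16 were lower (2.58% of all genes). The median of the mitotic members was -1.33 in DHA, -1.08 in LA and -1.06 in BSA, and that of the replication members -0.72 in DHA, -0.62 in LA and -0.33 in BSA. E2f1, Mcm7, Lig1, Ccnb1, Top2a, Mki67, Nusap1, Tpx2, Ube2c and Cdk4 were lower in each of the 3 media. Top2a fell by 1.70 (SE 0.327) in DHA, by 1.33 (SE 0.323) in LA and by 1.43 (SE 0.324) in BSA. Ccnd2 rose in LA, by 1.98 (SE 0.474), and its differences of 0.83 in DHA and 1.11 in BSA did not pass.

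**Figure D4:**
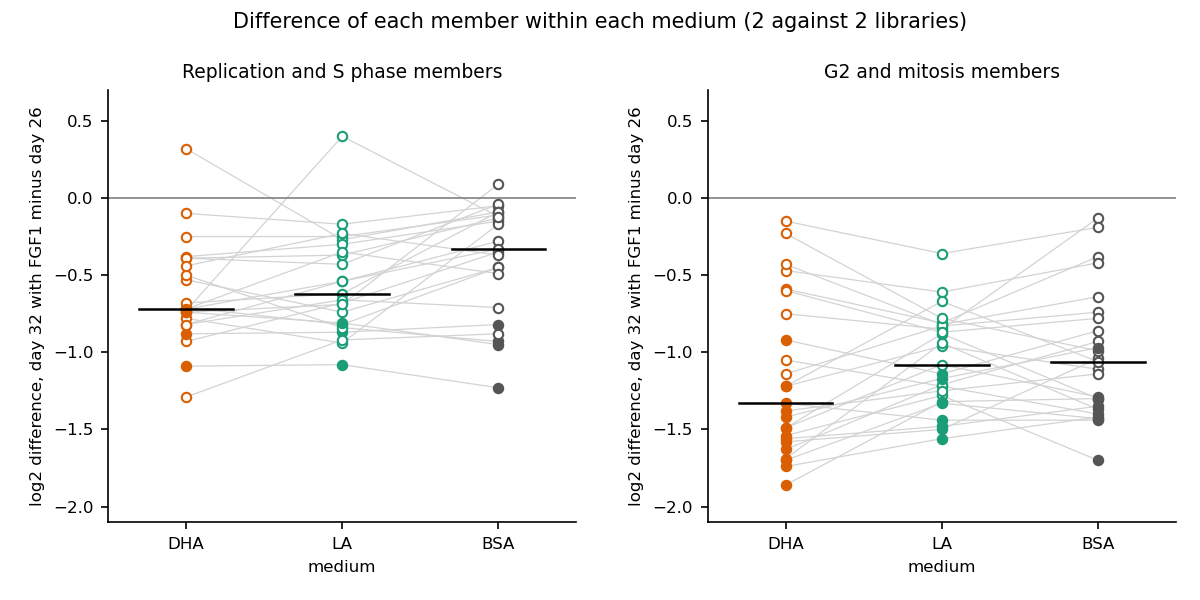
Log2 difference, day 32 with FGF1 minus day 26, of each replication member (left panel) and mitotic member (right panel) within DHA, LA and BSA. Filled circles passed an edgeR adjusted p under 0.05, thin lines join the values of 1 gene and black bars are medians. For the mitotic members the medians are -1.33 in DHA, -1.08 in LA and -1.06 in BSA.

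Whether this step differed between media was tested by the difference of the steps. For DHA minus LA, DHA minus BSA and LA minus BSA, edgeR called 0 members and 0.0% of all genes in each, with 1 member in each at an unadjusted p under 0.05. DESeq2 and limma voom called 0 members as well. The members' 95% intervals reached at the median 0.96 to 0.97 to either side on the log2 scale, and a missed threshold does not show that the steps were alike.

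The media were compared within each day and FGF1 state, as 9 pairs. DHA and LA were at matched dose, 26 uM, and the BSA groups had no fatty acid added. DHA has more carbons and more double bonds than LA. No member was called by edgeR in any of the 9 pairs, and 0 or 1 member in each reached an unadjusted p under 0.05. DESeq2 and limma voom called none. At day 32 with FGF1, edgeR called 0.00994% of all genes for DHA minus LA, 0.0% for DHA minus BSA and 0.0149% for LA minus BSA. At day 26 and at day 32 without FGF1, it called 0.0% of all genes in each pair.

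The values behind these pairs include some sizeable differences with wide intervals. Ccnd2 had 104 and 114 CPM in DHA with FGF1, against 126 and 276 CPM in LA with FGF1. The difference, DHA minus LA, was -0.92 (95% interval -1.93 to 0.08, edgeR adjusted p = 0.703), and it was called when no filter on low counts was used. Ccne1 differed by -0.76 (-1.46 to -0.06, edgeR adjusted p = 0.611) between the same groups. Cdc25c differed by -1.41 (-2.65 to -0.16, edgeR adjusted p = 1), DHA minus LA at day 32 without FGF1. The members' 95% intervals reached at the median 0.68 to 0.69 to either side in the deeper libraries and 0.89 to 0.90 in the shallower ones, so these data do not show that the media act alike on these genes.

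FGF1 itself could be set against no FGF1 only in the shallower libraries, with 2 libraries against 9 and a term for the libraries left out by the authors, which include both FGF1 libraries. No member and 0.0% of 19484 genes were called by edgeR, with 0 members and 372 genes at an unadjusted p under 0.05. DESeq2 called 0 members and 10 genes, and limma voom 0 members. The median difference was 0.07 for the mitotic members and -0.01 for the replication members. With each library left out in turn, these medians ran from -0.12 to 0.44 (mitotic) and from -0.15 to 0.29 (replication), lowest without replicate 1 of DHA and highest without replicate 1 of LA, both without FGF1. The members' 95% intervals reached at the median 0.93 to either side, and a missed threshold does not show that the levels were alike.

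Top2a had 95.5 and 77.5 CPM with FGF1 (BSA and LA), against 45.8, 66.3 and 94.5 CPM (lowest, median and highest) without FGF1. E2f1 had 3.11 and 1.76 CPM with FGF1, against 0.867, 2.97 and 7.18 CPM without. For both genes the FGF1 values lay within that range or, for 1 Top2a value, just above it. Ccnd2 had 187 and 176 CPM with FGF1, against 58.4, 122 and 153 CPM without. Both FGF1 values were above all 9 others, and the difference was 0.68 (95% interval 0.00 to 1.36). Pcna had 162 and 242 CPM with FGF1, against 90.6, 131 and 222 CPM without, a difference of 0.31 (-0.43 to 1.05). A pseudogene named Pcna-ps2 held 3.84 to 27.3 CPM in the left-out libraries and 0 to 1.14 CPM in the kept ones. The 12 fibroblast markers summed to 414 and 539.9 CPM with FGF1, against 53.7 to 303 CPM without, and 12 of 12 were above 0 in the fit without passing. Their part in the members' values was not tested. The libraries left out by the authors, set against the kept ones without FGF1, gave 0 members, while 0.27% of 17006 genes passed. At an unadjusted p under 0.05 there were 3 members, and DESeq2 and limma voom called 0. Aurka was the largest of the 3, at 1.09 (95% interval 0.39 to 1.78, edgeR adjusted p = 0.641).

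Of the other replication members, Mcm2 had 6.72 and 4.51 CPM with FGF1 (BSA and LA), against 2.70, 6.15 and 7.43 CPM without FGF1. Mcm5 had 2.51 and 3.41 CPM with FGF1, against 0.758, 3.66 and 7.26 CPM without. Rrm2 had 17.0 and 22.4 CPM with FGF1, against 8.45, 17.2 and 24.5 CPM without. All these FGF1 values fell inside the range without FGF1, and so did those of Ccne2 at 27.3 and 32.2 CPM, against 15.1, 26.1 and 40.2 CPM without.

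Of the mitotic members, Mki67 had 74.7 and 75.9 CPM with FGF1, against 37.5, 67.3 and 93.2 CPM without. Ccnb1 had 14.2 and 12.5 CPM with FGF1, against 5.52, 10.7 and 17.6 CPM without. Cdk1 had 18.2 and 21 CPM with FGF1, against 9.97, 12.0 and 25.2 CPM without. These overlapped the range without FGF1 throughout. Aurkb had 2.41 and 1.65 CPM with FGF1, against 1.63, 2.49 and 5.89 CPM without, a difference of -0.93 (95% interval -2.45 to 0.59).

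Of the D cyclins and kinases, Ccnd1 had 145 and 112 CPM with FGF1, against 64.5, 83.6 and 115 CPM without. Cdk6 had 38.4 and 35.3 CPM with FGF1, against 17.8, 28.6 and 35.0 CPM without. Both Cdk6 values and 1 of the 2 Ccnd1 values lay above the range without FGF1, the other Ccnd1 value inside it, with intervals that held 0 (-0.20 to 0.94 for Ccnd1, -0.51 to 0.97 for Cdk6). Cdk4 had 58.8 and 48.7 CPM with FGF1, against 27.9, 41.0 and 113 CPM without. Ccnd3 had 12.5 and 7.37 CPM with FGF1, against 3.22, 7.44 and 19.2 CPM without. Both stayed inside the range.

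The inhibitors also overlapped. Cdkn1a had 93.5 and 75.4 CPM with FGF1, against 30.2, 46.8 and 99.9 CPM without. Cdkn1b had 220.0 and 200.2 CPM with FGF1, against 132, 161 and 298 CPM without. Cdkn1c and Cdkn2c, the remaining inhibitors, likewise showed no separation. Cdkn1c had 31.0 and 27.9 CPM with FGF1, against 20.8, 32.6 and 48.1 CPM without. Cdkn2c had 7.22 and 3.96 CPM with FGF1, against 2.96, 5.72 and 9.49 CPM without.

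Within day 32 with FGF1, the depth sets held different levels of many genes, members and others alike. Both shallower libraries were above all 6 deeper ones for 22 members (37.9%), 14 of them mitotic, against 29.8% of all genes. They were below all 6 for 14 members (24.1%), against 36.2% of all genes. Cdk4 had 58.8 and 48.7 CPM in the shallower libraries with FGF1, against 132 to 174 CPM in the deeper ones. Top2a had 95.5 and 77.5 CPM in the shallower ones, against 26.7 to 53 CPM in the deeper ones. Both sets are day 32 with FGF1, and the shallower one holds BSA and LA only and was left out by the authors.

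Day 32 without FGF1 was set against day 26 in all 23 libraries, and here the day and the depth set cannot be told apart. In this pooled fit 28 members were lower (31.4% of 21124 genes) and 6 were higher (29.5% of genes). It shares its day 26 libraries with the comparison above. The largest falls were in E2f1 (-2.98), Cdt1 (-2.82), Gtse1 (-2.79) and Cdk4 (-2.52), and the members that rose were Mad2l1 (1.28), Ccne2 (1.05), Ccnd2 (1), Pcna (0.87), Pola1 (0.83) and Cdkn1b (0.78). Mcm2 (-1.97), Cdc20 (-1.95), Plk1 (-1.91), Ccnd3 (-2.17) and Cdk2 (-1.11) were among the others that fell, with Cdkn1c (-1) and Cdkn1a (-0.65). Cdkn1c lost its call with summed transcript counts. The deposited Cdk4 value was 1.305 to 1.498 times the sum of its transcript counts at day 26. At day 32 without FGF1 it was 0.676 to 1.169 times that sum. The part of this in the fall of Cdk4 was not tested.

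The levels show the size of these differences. E2f1 had 0.867, 2.97 and 7.18 CPM at day 32 without FGF1, against 24.4, 30.6 and 36.6 CPM at day 26. Ccnd3 had 3.22, 7.44 and 19.2 CPM at day 32 without FGF1, against 33.8, 40.5 and 46.9 CPM at day 26. Gtse1 had 0.396, 0.936 and 1.62 CPM at day 32 without FGF1, against 5.31, 6.40 and 6.90 CPM at day 26. No library crossed over in these genes. Cdt1 had 0.692, 1.25 and 3.76 CPM at day 32 without FGF1, against 9.14, 10.5 and 12.3 CPM at day 26. Cdk4 had 27.9, 41.0 and 113 CPM at day 32 without FGF1, against 251, 300.1 and 390.3 CPM at day 26. Mcm2 had 2.70, 6.15 and 7.43 CPM at day 32 without FGF1, against 16.6, 20.3 and 27.5 CPM at day 26. These were apart as well, in the same direction. Cdc20 had 0.217, 2.55 and 4.78 CPM at day 32 without FGF1, against 7.66, 9.16 and 11.5 CPM at day 26. Plk1, the mitotic kinase, had 0.433, 1.70 and 4.53 CPM at day 32 without FGF1, against 5.85, 6.87 and 9.76 CPM at day 26. Cdk2 had 4.71, 7.91 and 10.9 CPM at day 32 without FGF1, against 14.4, 17.6 and 21.6 CPM at day 26. Again no library crossed over.

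Members that rose or did not pass looked different. Mad2l1 had 27.4, 43.7 and 66.9 CPM at day 32 without FGF1, against 13.8, 18.7 and 24.8 CPM at day 26. Ccne2 had 15.1, 26.1 and 40.2 CPM at day 32 without FGF1, against 9.58, 11.9 and 14.6 CPM at day 26. In both, every day 32 library was above every day 26 library. Pcna had 90.6, 131 and 222 CPM at day 32 without FGF1, against 56.1, 68.9 and 97.1 CPM at day 26, so that the ranges crossed. Cdkn1b had 132, 161 and 298 CPM at day 32 without FGF1, against 104, 113 and 123 CPM at day 26, with no crossing. Top2a had 45.8, 66.3 and 94.5 CPM at day 32 without FGF1, against 78.3, 106 and 134 CPM at day 26, and its difference of -0.59 did not pass (edgeR adjusted p = 0.0585).

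GC content moved with the pooled result. The 6 members that rose had a median gene GC content of 42.6%, the 28 that fell had 52.9%, and the other 24 members had 45.4%. Over the 58 members, GC content and the difference had a Pearson r of -0.80, against 0.05 in the deeper libraries alone. With the depth set as a term, 0 members were higher and 16 lower, of which 7 were among the 34 called above. That term can be estimated only within BSA and LA with FGF1, from the shallower libraries that the authors left out against the deeper ones. Its values therefore do not separate day from depth set by the libraries compared here. Top2a was then at -1.75 (edgeR adjusted p = 0.00772), E2f1 at -0.50 (0.679) and Pcna at -0.86 (0.13). With an offset for GC content, 37 members were called, of which 25 were among those 34, and 1 of the 37 was higher. Top2a was then at -1.32 and Mki67 at -0.95. The median of all genes was 0.09 with the set term and -0.05 with the GC offset. The share of all genes called is not given for these fits, so their counts do not set the members apart from other genes.

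**Figure D5:**
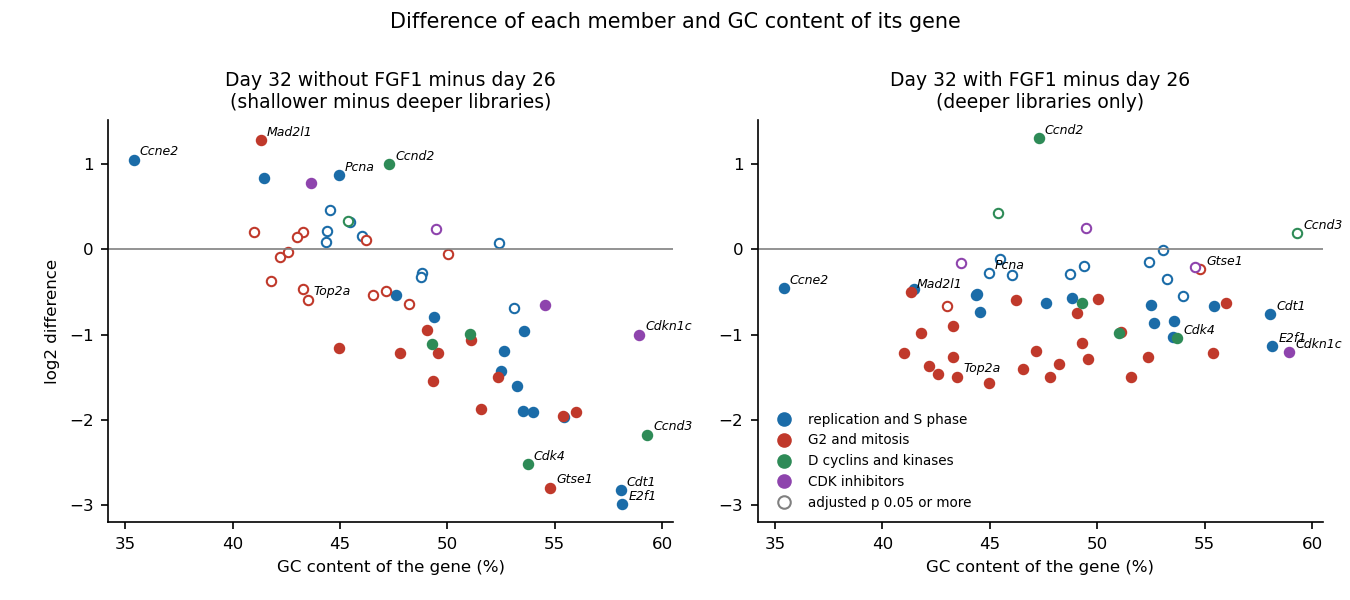
Log2 difference of each member against the GC content of its gene, for day 32 without FGF1 minus day 26 (left panel) and day 32 with FGF1 minus day 26 (right panel), coloured by class and filled where the edgeR adjusted p was under 0.05. In the left panel GC-poor members such as Ccne2 and Mad2l1 lie above 0 and GC-rich members such as E2f1 and Cdt1 lie lowest, and in the right panel no such slope is seen (r 0.05).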

How the data were processed

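The submitters' processing notes name kallisto 0.45.0, Trimmomatic 0.36, edgeR without a version and the build GRCm38.p6, in no stated order. Expected counts, which are estimates and not whole numbers, were deposited by the authors per gene and per transcript for 23 libraries in 9 groups. The table of signal in normalized CPM deposited by the authors holds 18 libraries, and gene positions per the file headers.

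Gene counts were rounded, filtered with filterByExpr, scaled by TMM and fitted with edgeR 4.0.16 quasi-likelihood models in R 4.3.3. Fits used the 12 deeper libraries, the 11 shallower ones, the 9 day 32 libraries without FGF1, and all 23. P values were adjusted by Benjamini-Hochberg over all genes tested, with calls under 0.05. CPM were scaled by TMM over the 23 libraries, and log2 CPM used a prior count of 2. Standard errors were approximated from the difference and its F statistic, and 95% intervals used the matching t quantile. Deposited gene values are not plain sums of transcript counts. GENCODE M21 gave GC content and length. Alternatives used limma 3.58.1 (voom), DESeq2 1.42.0, RLE factors, no filter, a GC offset, summed transcript counts and each library left out. Tests were also run on simulated counts that held no GC trend and no replicate or left-out effect, so they were not checked against these. Figures used Python 3.11.15 and matplotlib 3.10.9.

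The members, lists and comparisons were chosen with earlier results of these data known. The rule named all members, gave ranges for 20 of them and for up to 3 per class with the largest called difference, up to 4 other genes per list by smallest p, and the 5 genes most correlated with the mitotic mean. A marker gene that the rule would name is not reported here.

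Same-numbered libraries of DHA and LA at day 32 without FGF1 deviated together (correlations 0.3, 0.765 and 0.563), so those numbers met the rule for pairs. The fit reported for DHA minus LA there held no term for the pairs, and a replicate block was used only as an alternative. BSA with LA or DHA there gave -0.54 to 0.313 and was not taken as paired. Groups with 2 libraries give only 1 independent correlation per comparison, too few for this rule. It was 0.335 to 0.542 among the deeper FGF1 groups and -0.146 to 0.334 in the others.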

Additional observations from a re-analysis of the deposited data

How the results depend on the processing

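In day 32 with FGF1 minus day 26, the 42 members called kept that call with RLE factors, no filter, DESeq2, limma voom and the replicate block. Members called higher numbered 2 with no filter, DESeq2, the replicate block, summed transcript counts or only replicate number 1, which gave 47 lower, 3982 genes and medians of -1.38 (mitotic) and -0.85 (replication). Only replicate number 2 gave 17 lower, 1 higher, 3024 genes and medians of -0.90 and -0.29. The depth set as a term gave 3072 genes and kept 31 of the 42 members, and summed transcript counts lost Mcm3, Tyms and Ccne2. Leaving out each library gave 34 to 43 lower, 1 to 2 higher, 4326 to 5899 genes, a mitotic median of -1.27 to -1.09 and a replication median of -0.64 to -0.44. Without replicate 2 of BSA at day 26, or replicate 1 of LA with FGF1, Mcm3, Mcm6, Tyms, Ccne2, Ccna2, Mad2l1 and Plk1 were lost. Pcna was called without replicate 2 of LA at day 26, and Mcm5 without replicate 2 of LA with FGF1. Crossing the DHA numbers at day 26 (correlation -0.146) gave 2 higher and 42 lower. The fits by replicate number, crossed numbers and summed transcript counts were chosen after seeing the data.

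For FGF1, the genes called were 32 with no filter, 10 with DESeq2, 55 with the replicate block and 6 in the left-out libraries, with 0 members in each. All 23 libraries pooled gave 11 members higher, 9 lower, 9563 genes and a mitotic median of -0.39. In that fit most FGF1 libraries are deeper and all day 32 libraries without FGF1 are shallower, so FGF1 and depth set cannot be told apart. Leaving out each library gave medians of -0.12 to 0.44 (mitotic) and -0.15 to 0.29 (replication). DHA minus LA at day 32 with FGF1, and the difference of its step, each gave 1 member with no filter (Ccnd2).

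For day 32 without FGF1, the depth set term gave 0 higher, 16 lower, 1500 genes and a mitotic median of -1.31. The GC offset called 37 members, 1 of them higher, and kept 25 of the 34 called in the main fit. Its share of all genes is not given. Of the members called in the main fit, 6 changed sign under the set term, among them Pcna at -0.86. Under the GC offset 4 changed sign, among them Cdkn1c at 0.87. The cause was not tested. The replicate block lost Cdc45 and Pcna and gained Cdk1, Top2a and Tpx2 there, and changed no call in the media comparisons. Summed transcript counts lost Tyms and Cdkn1c for day 32 without FGF1 and gained Ccne1, Bub1b, Tpx2 and Cdk6. Intervals cover the spread between 2 to 3 libraries per group, and the shallower set and the low counts of Cdc25c and Cdc6 limit what could be detected.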
